A study of Homo sapiens with 4 samples.

Results

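The genes followed here are 10 members of the class 3 semaphorin system, taken by name from the 36359 genes of the count table. They are 6 secreted ligands (SEMA3A, SEMA3B, SEMA3C, SEMA3D, SEMA3E and SEMA3F), the 2 neuropilins NRP1 and NRP2, and the plexins PLXNA1 and PLXND1. RNA-seq was performed on ACHN, a long-established line of human renal carcinoma cells, after lipid transfection of either the siRNA labelled siNC, the control, or an siRNA against PRR11 (siPRR11), with 2 libraries in each group. All cells were of this single line and were grown in MEM with fetal bovine serum. The time between transfection and harvest, and which of the siPRR11 duplexes entered a library, were not given in the sources used here. Nothing in the labels says that the libraries of a group came from separate cultures, so the p-values measure the spread between these libraries, which may be technical.

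Class 3 semaphorins are secreted guidance proteins that repel or attract axons, endothelial cells and tumor cells. A neuropilin usually binds the ligand and a plexin carries the signal into the cell, where the plexin acts on small GTPases of the Ras family and on the cytoskeleton. SEMA3A is best known as a ligand of NRP1 and SEMA3F as a ligand of NRP2, SEMA3C binds both, and SEMA3E can bind PLXND1 without a neuropilin. Neuropilins also serve as co-receptors for VEGF, which gives them a part in blood vessel growth.

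The libraries held between 59003839 and 92612749 counted reads. PRR11, the targeted gene, lay at 41.3 and 40.4 CPM (counts scaled to library size with TMM factors) in siNC and at 15.3 and 14.0 CPM in siPRR11, or -1.48 on the log2 scale (standard error, SE, 0.0909, edgeR adjusted p = 3.35e-06). Adjusted p-values come from the quasi-likelihood fit of edgeR to the 21630 genes with enough counts, corrected by Benjamini and Hochberg's method over all of them, and the threshold was 0.05. It was passed by 16.7% of the tested genes, with 7.61% higher and 9.14% lower in siPRR11 cells. Higher genes thus made up 45.4% of these calls, against 61.5% with limma on log2(RPKM + 1). The median log2 fold change over all tested genes was 0.00224. Of 12 markers fixed for renal epithelial cells, 10 were at 1 RPKM (reads counted per exon length and library total) or more in every library, and CDH6 and CA9 were under 0.1 RPKM. Their summed level was 558.1 to 609.4 RPKM in siNC and 597.8 to 614.2 RPKM in siPRR11. All 5 endothelial markers in the table and all 5 blood cell markers were under 0.1 RPKM in every library, and the endothelial list summed to 0.0359 to 0.0655 RPKM in siNC and 0.0953 to 0.112 RPKM in siPRR11. Of 5 neuronal markers, TUBB3 and SYT1 were at 1 RPKM or more throughout, and RBFOX3 was under 0.1 RPKM in every library. GAP43 was at 1.27 and 1.14 RPKM in siNC and 0.424 and 0.364 RPKM in siPRR11. SNAP25 was at 0.369 and 0.565 RPKM in siNC and 0.309 and 0.721 RPKM in siPRR11. The neuronal list summed to 19.56 to 25.35 RPKM in siNC and 18.68 to 22.32 RPKM in siPRR11. TUBB3 alone was at 21.8 and 16.3 RPKM in siNC and 20.3 and 16.5 RPKM in siPRR11. What these markers have to do with the results was not tested.

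All 10 genes had enough counts to be tested. NRP2, SEMA3A and SEMA3D fell and SEMA3F rose in siPRR11 cells, while the other 6 did not pass the threshold. These 4 of 10 compare with 16.7% of all genes tested. The 10 were chosen with earlier results of these data known, so the comparison is not a test of the group. The median log2 fold change over the 10 genes was 0.00313, with 5 values above and 5 below 0. The groups did not overlap for 9 of the 10 genes, SEMA3C being the exception, and the same held for 58.4% of all genes tested. In bulk RNA, a change in the number of cells that carry a transcript and a change in the transcript per cell cannot be told apart.

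**Figure D1:**
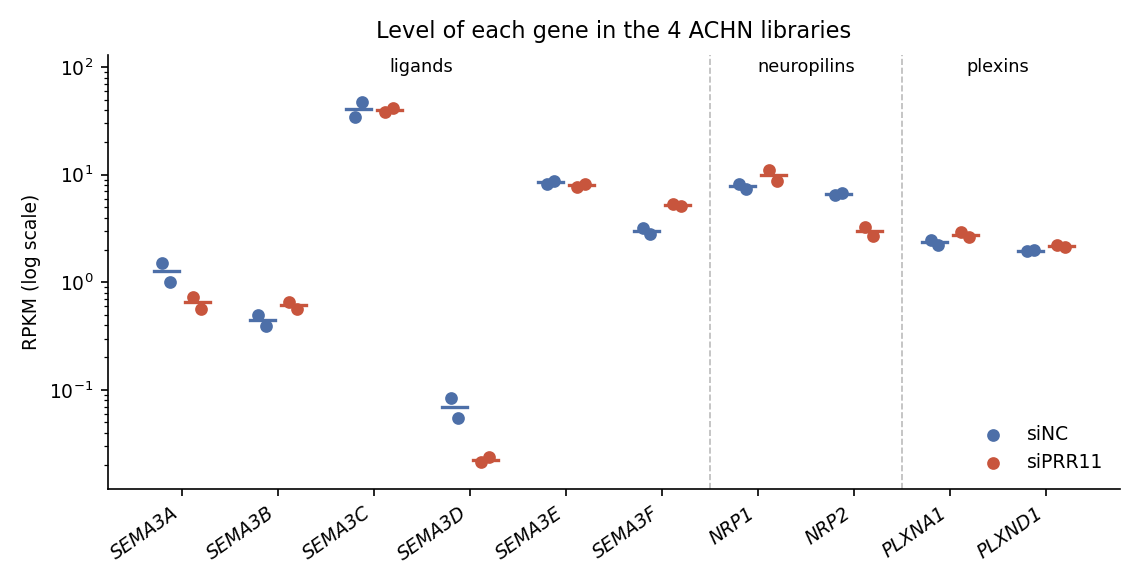
RPKM of the 10 genes on a log axis, with 1 point per library and a bar at the mean of each group (siNC blue, siPRR11 red, 2 libraries each). SEMA3C stands above all others at 34.2 to 47.7 RPKM, and SEMA3D lies under 0.1 RPKM. The groups overlap for SEMA3C only. In CPM, groups without overlap were found for 58.4% of all genes tested.

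In control cells, per length, SEMA3C was the highest of the 10 genes, with 34.2 and 47.7 RPKM, above 94.6% of all tested genes. SEMA3E (8.49 RPKM) and NRP1 (7.78 RPKM) came next, and their libraries overlapped, so they did not differ beyond their spread. NRP2 followed at 6.59 RPKM, then SEMA3F, PLXNA1, PLXND1, SEMA3A and SEMA3B at 2.99, 2.36, 1.97, 1.27 and 0.446 RPKM, each without overlap with its neighbour. SEMA3D was last at 0.0691 RPKM, above 5.26% of tested genes, and rests on 56 and 26 counts. In siPRR11 cells the order changed at a few places. NRP1 (9.91 RPKM) stood above SEMA3E (7.97 RPKM), and SEMA3F (5.37 and 5.14 RPKM) stood above NRP2 (3.29 and 2.71 RPKM). The libraries of NRP2 then overlapped with those of PLXNA1, and the libraries of SEMA3A overlapped with those of SEMA3B.

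**Figure D2:**
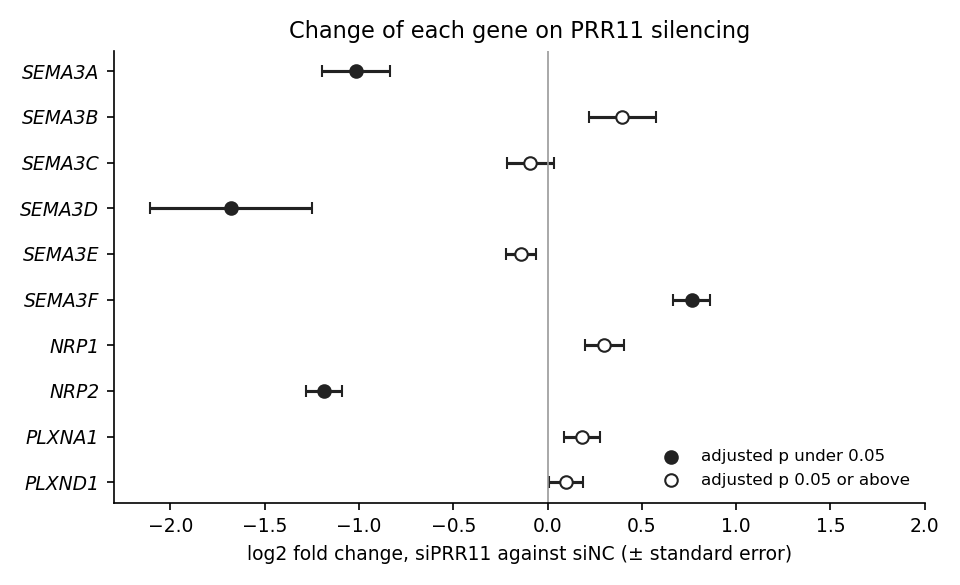
Log2 fold change of each of the 10 genes in siPRR11 against siNC cells, with its standard error from edgeR's quasi-likelihood fit on 2 libraries per group. Filled points have an adjusted p-value under 0.05 over all tested genes: SEMA3A, SEMA3D and NRP2 to the left of 0 and SEMA3F to the right.

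Promoter sequences were taken from RefSeq (GRCh38.p14) as windows of 250 bases before and 50 bases after a transcription start, and 8 of the 10 genes matched, all but SEMA3A and NRP1. In the window nearest the start of each gene's canonical transcript, GC content ran from 47.3% (SEMA3E) and 57% (SEMA3D) through 70% (NRP2) and 80.7% (SEMA3F) to 87.3% (PLXND1), against a median of 58.7% over 35116 windows. The GC box GGGCGG, searched on both strands with overlapping matches counted, was found in 6 of the 8 windows, all but those of SEMA3D and SEMA3E, and in 45% of all windows. TATAAA, on either strand, was in none of the 8 and in 11.5% of all windows. The E-box CACGTG was only in the window of SEMA3E and in 7.26% of all windows. The start of the gene that rose is set beside those of the genes that fell, for the changed genes with a window. Shown are the upstream bases free of exons annotated on the same strand. They are chr2:205682251-205682499 on the plus strand for NRP2 (249 bases), chr3:50154808-50155044 on the plus strand for SEMA3F (237 bases) and chr7:85187057-85187306 on the minus strand for SEMA3D (250 bases), written 5′ to 3′ with the GC box of either strand in capitals. For SEMA3F the stretch lies before another annotated start, at 50155058. That start was used because exons of the same strand reach into the window before the canonical start, 50155324. Exons on the opposite strand were not excluded, and the SEMA3F stretch lies within the span of the antisense gene SEMA3F-AS1.
NRP2: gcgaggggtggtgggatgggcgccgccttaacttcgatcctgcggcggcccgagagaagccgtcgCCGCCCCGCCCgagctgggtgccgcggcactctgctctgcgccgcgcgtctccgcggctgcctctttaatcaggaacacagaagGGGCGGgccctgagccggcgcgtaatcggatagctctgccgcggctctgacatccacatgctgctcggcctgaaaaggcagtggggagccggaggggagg
SEMA3F: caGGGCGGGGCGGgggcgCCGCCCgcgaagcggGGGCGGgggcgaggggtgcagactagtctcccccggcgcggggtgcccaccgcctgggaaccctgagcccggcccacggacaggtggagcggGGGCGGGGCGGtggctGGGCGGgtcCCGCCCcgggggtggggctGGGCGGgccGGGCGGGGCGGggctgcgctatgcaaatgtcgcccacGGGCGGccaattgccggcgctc
SEMA3D: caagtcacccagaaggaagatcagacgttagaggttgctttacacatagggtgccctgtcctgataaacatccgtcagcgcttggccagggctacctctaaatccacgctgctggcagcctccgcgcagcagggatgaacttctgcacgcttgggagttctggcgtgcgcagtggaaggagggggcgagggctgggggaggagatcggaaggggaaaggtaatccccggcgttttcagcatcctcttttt

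These stretches hold 3 GC boxes for NRP2, 12 for SEMA3F and 0 for SEMA3D, at 69.9%, 81.9% and 57.6% GC. The canonical windows hold 3 for NRP2, 2 for SEMA3F and 0 for SEMA3D, so whether SEMA3F or NRP2 has more depends on the start used. The match is a description of the letters and says nothing about which factors bind there.

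Among the 10 genes, NRP2 had the lowest adjusted p. It encodes the neuropilin that binds SEMA3F and, with VEGFR3, VEGF-C, and its plus-strand locus on chromosome 2 (GRCh38, as all positions here) runs from 205681990 to 205798133. Its level was 90.7 and 95.7 CPM in the siNC libraries and 44.9 and 37.0 CPM in the siPRR11 libraries. Both silenced libraries thus lay below both control libraries, with 0.44 of the control level remaining. This is -1.18 on the log2 scale (SE 0.0961, edgeR adjusted p = 1.78e-05), with a range of -1.33 to -1.05 over the fits that omit 1 library. The stretch of NRP2 shown above lies before the canonical start, 205682501, but inside this locus. It holds GC boxes, as does that of SEMA3F, which rose. An antisense gene, AC007362.3, lies inside the NRP2 locus from 205756469 to 205764006 on the minus strand and shares 1.06% of the exonic bases of NRP2. It fell from 21.5 and 22.4 CPM to 8.39 and 7.22 CPM, a log2 fold change of -1.49 (edgeR adjusted p = 8.62e-06), and was named after its values had been seen. Whether reads were counted by strand was not given in the sources used here, so reads of this gene and of NRP2 in the shared bases may not be separated.

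NRP1, the neuropilin of SEMA3A and the VEGF co-receptor on endothelial cells, lies on chromosome 10 from 33177492 to 33336262 on the minus strand. It was at 96.5 and 85.8 CPM in siNC and at 124.3 and 100.3 CPM in siPRR11. The silenced libraries lay above the controls, but the siPRR11 libraries differed among themselves by more than the gap to the controls. The log2 fold change of 0.30 (SE 0.1025) had an edgeR adjusted p of 0.0664 and was not past the threshold. DESeq2 gave an adjusted p of 0.0416 for the same counts, and edgeR's exact test gave 0.0459. Without siNC library 1 or siPRR11 library 2 the log2 fold change was 0.386 and 0.447. Without siPRR11 library 1 it was 0.14. An antisense gene covers 4.87% of the exonic bases of NRP1.

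The neuropilins together made up 14.7 and 14.1 RPKM in siNC and 14.3 and 11.5 RPKM in siPRR11. NRP2 held 43.8% and 48.0% of this sum in the control libraries and 23.1% and 23.4% in the silenced ones. Per length, NRP1 was thus 1.28 and 1.08 times NRP2 in siNC and 3.34 and 3.27 times NRP2 in siPRR11. The groups did not overlap in this ratio, whose exact permutation test gave a two-sided p of 0.333, the smallest that 2 libraries against 2 allow.

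**Figure D3:**
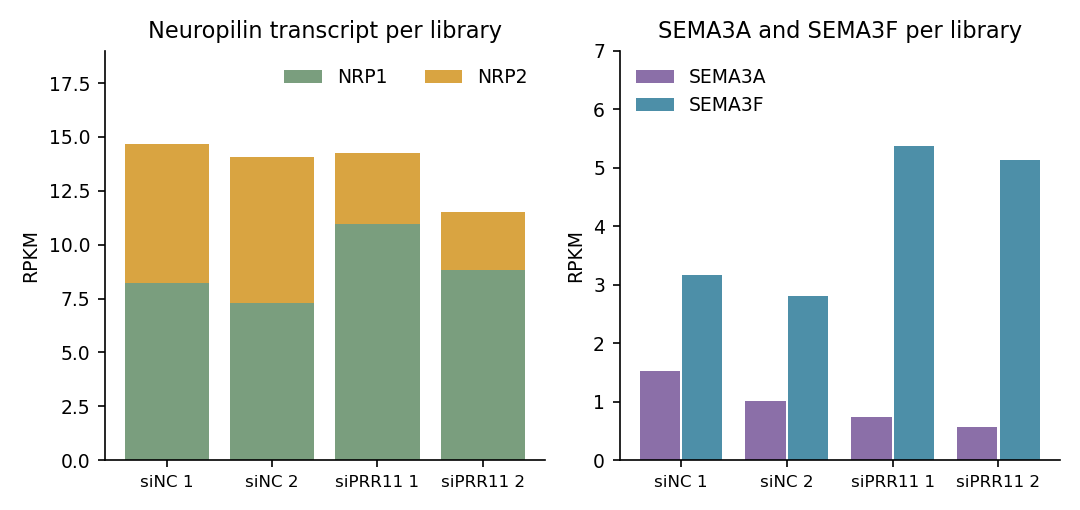
Left, RPKM of NRP1 and NRP2 stacked in each of the 4 libraries, and right, RPKM of SEMA3A and SEMA3F side by side in the same libraries. The NRP2 part of the neuropilin bar is 43.8% and 48.0% in siNC and 23.1% and 23.4% in siPRR11, and SEMA3F is 2.08 and 2.77 times SEMA3A in siNC and 7.32 and 9.04 times SEMA3A in siPRR11.

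Neither plexin passed the threshold. PLXNA1, a signaling partner of the neuropilins, was at 27.6 and 25.0 CPM in siNC and at 31.6 and 28.2 CPM in siPRR11 (chromosome 3 from 126988594 to 127037392, plus strand). Its log2 fold change was 0.18 (SE 0.0957, edgeR adjusted p = 0.222). PLXND1, the receptor of SEMA3E, was at 19.2 and 19.8 CPM in siNC and at 21.4 and 20.3 CPM in siPRR11 (chromosome 3 from 129555175 to 129606818, minus strand). Its log2 fold change was 0.10 (SE 0.09195, edgeR adjusted p = 0.523). In both genes the silenced libraries lay above the controls by a small margin.

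Among the ligands, SEMA3F rose and SEMA3A fell, the former a known partner of NRP2 and the latter of NRP1. SEMA3F, which repels endothelial and tumor cells that carry NRP2, lies on chromosome 3 from 50155045 to 50189075 on the plus strand. It was at 15.5 and 13.8 CPM in siNC and at 25.4 and 24.4 CPM in siPRR11, and the groups were separated by more than the spread within either. The difference was 0.77 on the log2 scale (SE 0.0981, edgeR adjusted p = 0.000403), a 1.70-fold rise, and it kept within 0.65 and 0.85 in all alternative fits. The antisense gene SEMA3F-AS1 shares 2.28% of the exonic bases of SEMA3F and had a log2 fold change of 0.24 (edgeR adjusted p = 0.171).

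SEMA3A, the founding axon repellent of the family, lies on chromosome 7 from 83955777 to 84492724 on the minus strand. It was at 14.5 and 9.68 CPM in siNC and at 6.75 and 5.25 CPM in siPRR11. The control libraries differed from each other by more than the silenced ones, and both still lay above both silenced libraries. The difference was -1.02 on the log2 scale (SE 0.181, edgeR adjusted p = 0.00279). It was -0.69 without siNC library 1, and the call was lost with limma on log2(RPKM + 1) and log2(RPKM + 0.1), where the adjusted p was 0.0923 and 0.0827. Per length, SEMA3F was 2.08 and 2.77 times SEMA3A in siNC and 7.32 and 9.04 times SEMA3A in siPRR11.

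SEMA3D, a guidance factor of the developing heart and vessels, lies on chromosome 7 from 84995553 to 85186855 on the minus strand. Only 56 and 26 reads were counted in the siNC libraries and 16 in each siPRR11 library. The levels were 0.685 and 0.448 CPM against 0.170 and 0.187 CPM, without overlap. The log2 fold change of -1.68 had the widest error of the 10 genes (SE 0.429, edgeR adjusted p = 0.0197). The call was lost without siNC library 1 (adjusted p = 0.126) and without siPRR11 library 1 (adjusted p = 0.0709), and DESeq2 left the gene without an adjusted p. It was also lost with limma, at -0.06 on log2(RPKM + 1) (adjusted p = 0.244) and -0.46 on log2(RPKM + 0.1) (adjusted p = 0.142).

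The other 3 ligands did not pass the threshold. SEMA3C, a ligand of both neuropilins that is often high in tumors, lies on chromosome 7 from 80742538 to 80922359 on the minus strand. It was at 218 and 304.1 CPM in siNC and at 234 and 255.8 CPM in siPRR11. Both silenced libraries lay between the controls. The difference was -0.09 on the log2 scale (SE 0.124, edgeR adjusted p = 0.673), but it was -0.315 without siNC library 1 and 0.16 without siNC library 2. Its direction therefore rests on which control library is used. SEMA3C made up 71.8% and 78.5% of the summed RPKM of the 6 ligands in siNC and 72.3% and 74.1% in siPRR11, and the sum itself was 47.7 and 60.7 RPKM against 52.6 and 55.9 RPKM.

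SEMA3E, the ligand of PLXND1, lies on chromosome 7 from 83363906 to 83649010 on the minus strand. It was at 56.2 and 60.4 CPM in siNC and at 51.5 and 54.3 CPM in siPRR11. The groups were close without overlap, with a log2 fold change of -0.14 (SE 0.0803, edgeR adjusted p = 0.271). SEMA3B, studied as a tumor suppressor of lung cancer, lies on chromosome 3 from 50267558 to 50277546 on the plus strand. It was at 2.94 and 2.29 CPM in siNC and at 3.72 and 3.20 CPM in siPRR11. Its log2 fold change of 0.40 (SE 0.177) was not past the threshold (edgeR adjusted p = 0.155). Over the fits that omit 1 library, it ran from 0.235 without siNC library 2 to 0.593 without siNC library 1. SEMA3G, the class 3 semaphorin outside this group, rose from 5.31 and 6.45 CPM to 47.6 and 58.3 CPM, a log2 fold change of 3.18. Its RPKM was 3.05% and 2.65% of that of SEMA3C in siNC and 25.4% and 28.5% in siPRR11.

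The ligand genes lie in a pair of groups on the chromosomes. SEMA3C, SEMA3E, SEMA3A and SEMA3D occupy 4444.3 kb of chromosome 7, all on the minus strand, and their log2 fold changes were -0.09, -0.14, -1.02 and -1.68. SEMA3F and SEMA3B lie 78.5 kb apart on the plus strand of chromosome 3, with log2 fold changes of 0.77 and 0.40. Of these 6 genes SEMA3A, SEMA3D and SEMA3F passed the threshold, and the sign of SEMA3C turned to 0.16 without siNC library 2.

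The surrounding pathway was followed through 5 lists of 64 genes in all, of which 57 could be tested. Of these, 6 rose and 11 fell, with a median log2 fold change of -0.00119. The 17 calls, and those of each list, compare with 16.7% of all genes tested, 7.61% higher and 9.14% lower. The lists too were chosen with earlier results of these data known.

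Of the other plexins, 2 of 6 tested rose and none fell, against 7.61% higher and 9.14% lower over all genes tested. PLXNB2, a receptor of membrane-bound semaphorins, was by far the highest plexin, at 34.6 and 34.1 RPKM in siNC and 46.3 RPKM in both siPRR11 libraries. Its log2 fold change was 0.38 (SE 0.0691, edgeR adjusted p = 0.00306). PLXNB3 rose by 0.65 (adjusted p = 0.0457), but 20.4% of its exonic bases are shared with SRPK3 on the same strand, and the call was lost without siNC library 2 or siPRR11 library 1. Of 11 membrane-bound semaphorins tested, SEMA7A rose by 0.40 (adjusted p = 0.0448) and SEMA4D fell by 0.38 on the log2 scale (adjusted p = 0.0093). The call of SEMA7A was lost whenever any 1 library was left out, and that of SEMA4D without either siPRR11 library (adjusted p = 0.0686 and 0.0831).

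Of 25 intracellular effectors tested, 2 rose and 7 fell, with a median log2 fold change of -0.02. Over all genes tested, 7.61% were called higher and 9.14% lower. Limma called 2 genes of this list on either RPKM scale. Of all 21630 genes it called 1775 on log2(RPKM + 1) and 1878 on log2(RPKM + 0.1). LIMK1, a kinase that inactivates cofilin, fell from 82.9 and 77.4 CPM to 52.2 and 53.9 CPM, a log2 fold change of -0.60 (edgeR adjusted p = 0.000433). FYN, a kinase that acts with CDK5 downstream of SEMA3A, changed in log2 terms by -0.61 (edgeR adjusted p = 0.017, but 0.0715 and 0.071 without siPRR11 library 1 or 2). CDK5 itself rose by 0.45 (adjusted p = 0.0053), although 11.3% of its exonic bases are shared with SLC4A2 on the opposite strand. SLC4A2 had 21256 and 14858 counts in siNC and 32092 and 28599 in siPRR11. CDK5 had 2237 and 1432 counts in siNC and 3323 and 3066 in siPRR11. Without a known strand setting, reads in the shared bases may not be separated. MICAL1, an oxidase that dismantles actin filaments when plexins signal, changed in log2 terms by -0.33 (edgeR adjusted p = 0.0439), a call that was lost without either siPRR11 library or without siNC library 1. Of the 5 collapsin response mediators on the list, DPYSL2 rose and CRMP1 fell, with log2 fold changes of 0.26 and -0.33. Their edgeR adjusted p-values were 0.0389 and 0.0412, close to the threshold, and their values in the other fits are not given here. DPYSL3 (-0.42, edgeR adjusted p = 0.125) and DPYSL5 (-0.02, edgeR adjusted p = 0.905) did not pass, DPYSL4 had too few counts for a test, and this family was named after its values had been seen.

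Among VEGF ligands and receptors that use neuropilins, 1 of 6 tested genes rose and none fell. The shares over all genes tested were 7.61% higher and 9.14% lower. VEGFA, the main ligand of blood vessel growth, rose from 5.02 and 4.66 RPKM to 6.97 and 6.87 RPKM, a log2 fold change of 0.47 (SE 0.076, edgeR adjusted p = 0.00168). VEGFC, a ligand of NRP2, stood at -0.35 on the log2 scale (edgeR adjusted p = 0.127) and did not pass the threshold. The adjusted p was 0.00543 in edgeR with the replicate number as a block, a fit that called 6988 of 21630 genes. It was 0.16 with DESeq2 and 0.283 and 0.266 with limma on log2(RPKM + 1) and log2(RPKM + 0.1). Over the fits that omit 1 library, the log2 fold change of VEGFC ran from -0.544 to -0.185. The VEGF receptors were barely detected. KDR had 2 or 3 counts in each library, too few for a test, and FLT1 had 24 and 14 counts in siNC and 16 and 14 in siPRR11. Of 9 processing proteases and co-receptors tested, 3 fell and none rose, against 9.14% lower and 7.61% higher over all genes tested. Limma called 1 gene of this list on either RPKM scale, beside 1775 and 1878 of all 21630 genes. FURIN, the convertase that cleaves class 3 semaphorins, changed in log2 terms by -0.53 (edgeR adjusted p = 0.00435, but 0.0596 and 0.0511 with limma on log2(RPKM + 1) and log2(RPKM + 0.1)). The shedding protease ADAM17 changed by -0.51 (adjusted p = 0.000669), with 24.1% of its exonic bases shared with IAH1 on the opposite strand, and ADAMTS1 changed by -0.40 (adjusted p = 0.00881, or 0.0564 without siPRR11 library 1). L1CAM, a co-receptor of NRP1, was at 39.7 to 44 RPKM in the 4 libraries and did not pass the threshold (log2 fold change 0.07, adjusted p = 0.57). Among the named genes of these lists, PLXNB3, SEMA4D, SEMA7A, FYN, MICAL1, FURIN and ADAMTS1 were not called by limma on either RPKM scale.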

How the data were processed

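RNA of ACHN cells with siNC or siPRR11 was sequenced in 2 libraries each, grouped by sample titles. The authors trimmed reads of stranded libraries (Trimmomatic 0.36), used STAR for alignment to GRCh38 and featureCounts (Subread 1.5.1) for counting. The annotation release and strand setting were not given in the sources used here. The authors deposited raw counts per gene and RPKM values. The deposited RPKM equal count over exonic length and library total to within 3.08e-06% in the 15916 genes compared, all above 50 counts in each library.

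Counts were tested with edgeR 4.0.16 in R 4.3.3 (quasi-likelihood test, filterByExpr, TMM, condition as term). The SE is the log2 fold change over the square root of F. The fit was tested on simulated data, in which every gene had the same dispersion and the libraries varied independently. How often it errs on the present counts was not tested. Counted reads per library ranged from 59003839 to 92612749, and counting error matters most for SEMA3D. Replicates differed beyond sampling noise (chi-square per degree of freedom 21.5 in siNC, 14.4 in siPRR11). Other settings were RLE scaling, DESeq2 1.42.0, the exact test of edgeR, no filter or at least 10 counts in every library, limma 3.58.1 on log2(RPKM + 1) or log2(RPKM + 0.1), the replicate number as a term, and omission of each library, which assumes that a lone library varies like the other group.

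The 10 genes and all lists were chosen with earlier results of these data known. The text names them, PRR11, SEMA3G, VEGFA, VEGFC, KDR, FLT1 and, from each list, up to 4 called genes with the largest change and a mean log2 CPM of 1 or more. Other genes are stated as chosen later or as markers, antisense or overlapping genes. L1CAM was chosen after its values were seen.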

Additional observations from a re-analysis of the deposited data

How the results depend on the processing

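Each group has only 2 libraries, which limits what can be detected. NRP2, SEMA3F and PRR11 kept their direction and call in every fit. The log2 fold change of SEMA3C was 0.16 without siNC replicate 2 and -0.315 without siNC replicate 1, against -0.09 with all libraries. Leaving out each library gave 2172 to 4590 genes past the threshold (3622 with all), 945 to 2173 higher and 1227 to 2417 lower, 3 to 6 of the 10 genes, and 8 to 20 of the 57 tested list genes (17 with all). The lowest counts of genes and list genes came without siPRR11 replicate 1 and the highest without siNC replicate 1. Limma on log2(RPKM + 1) called 1775 genes (1091 higher, 684 lower), 2 of the 10 and 5 list genes. Limma on log2(RPKM + 0.1) called 1878 genes (726 lower), 2 of the 10 and 5 list genes. The cause was not tested.

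The replicate numbers are shared between the groups, but nothing ties the numbers to a shared culture or day. The difference between replicates 1 and 2 correlated across 14193 genes between the groups (Pearson's r = 0.482), and 2 pairs do not settle the pairing. With the replicate number as a block, 6988 of 21630 genes passed, 3338 higher and 3650 lower. Among them were 30 list genes and 7 of the 10. This fit added NRP1 (adjusted p = 3.91e-05), SEMA3B (0.0233) and PLXNA1 (0.047) in edgeR. VEGFC also passed (0.00543).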

Other observations

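The genes around the ligands were compared with them. Between SEMA3C and SEMA3D on chromosome 7, from 80742538 to 85186855, 4 other genes could be tested, and their median log2 fold change was -0.20. PCLO, a presynaptic scaffold, fell there by 0.43 on the log2 scale (edgeR adjusted p = 0.0424), and none rose. HGF, the ligand of MET, had a log2 fold change of -1.10 with a wide error (SE 0.494, adjusted p = 0.158). Around SEMA3F and SEMA3B on chromosome 3, from 50055045 to 50377546, 21 other genes could be tested, with a median log2 fold change of 0.15. RASSF1, a tumor suppressor often silenced in renal cancer, rose by 0.40 (adjusted p = 0.0307), and none fell. The calls, 1 of 4 and 1 of 21 neighbours, compare with 16.7% of all genes tested, 7.61% higher and 9.14% lower. PCLO, HGF and RASSF1 were named after their values had been seen.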
